A study of Homo sapiens with 12 samples.

Results

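TDP43 and hnRNP M, a pair of nuclear RNA-binding proteins, were compared by their RNA contacts in wild-type (WT) cells of H9, a human embryonic stem cell line in long use. The comparison used 4 of the 12 libraries of the series, chosen by their labels: 2 of TDP43 and 2 of hnRNP M, described in the series design text as biological replicates. The contacts were measured by iCLIP, in which ultraviolet light binds proteins covalently to RNA, an antibody recovers 1 protein with its RNA, and the point where a cDNA stops gives the crosslinked nucleotide. Crosslinking was with 400 mJ per square centimetre throughout, and the groups compared differed in the antibody. The study also holds P-KO cells of the same line and another protein, FOX2. The 2 TDP43 and 2 hnRNP M libraries from P-KO cells are used here to look again at what was chosen in WT cells. H9 is 1 cell line, and no input or no-antibody library was analysed here, so a count could not be set against the abundance of the RNA.

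TDP43 is an RNA- and DNA-binding protein with a pair of RNA recognition motifs that prefer GU-rich stretches; it is known for regulating splicing, for repressing cryptic exons and for binding its own messenger RNA. hnRNP M is an abundant nuclear protein with several RNA recognition motifs, associated with GU-rich RNA as well, and known as a regulator of alternative splicing. Most RNA contacts of such proteins are in introns, which are long and are removed from the transcript soon after it is made.

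Each library came as a list of single nucleotides, with a whole-number count, the Ensembl transcript and, for intronic positions, the number of the intron. Positions were kept from the highest count downwards, at least 11 nt apart on a strand, and the sum of their counts is called window counts. The 4 libraries had a kept position in 27252 transcripts and 43995 introns. Of these transcripts, 8154 were listed for both proteins, 17142 for TDP43 only and 1956 for hnRNP M only, and 2359 were listed in all 4 libraries. The lists leave out low values, and their lowest count was 2, so a transcript that a list lacks is called listed at 0 and is given no limit. No fold is given where both libraries of a protein are listed at 0. Where a single library is listed at 0, the fold takes that library as 0. The sources used here do not pair the transcript identifiers with gene names, so that transcripts and introns are given by chromosome, strand and the first and last kept position (hg19), and identifiers are given for 4 of them.

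The TDP43 libraries were deeper. They held 65074 and 90814 kept positions with 207788 and 282997 window counts, against 7299 and 32394 kept positions with 61625 and 123482 window counts in the hnRNP M libraries. hnRNP M replicate 1 stood apart from the other 3 libraries. Its median count per kept position was 9, against 2 and 2 in the TDP43 libraries and 3 in hnRNP M replicate 2, and 39.8% of its kept positions had a count of 10 or more, against 1.92% and 1.35% in TDP43 and 0.608% in hnRNP M replicate 2. Its list holds few positions of low count. The counts of edgeR calls, the difference in intron share and the named features were also computed without it, and its part in the other results was not tested. The P-KO libraries used below were as uneven: TDP43 had 57236 and 97045 kept positions with medians of 3 and 2 counts, against 7887 and 11471 kept positions with medians of 8 and 5 in hnRNP M. In hnRNP M P-KO replicate 1, 26.1% of kept positions had a count of 10 or more, so a P-KO reading is not free of what sets hnRNP M replicate 1 apart.

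At the level of single positions the proteins shared little. Of the kept positions of TDP43 replicate 1, 8.39% had a kept position of TDP43 replicate 2 within 10 nt on the same strand, and 0.180% and 0.859% had a position of hnRNP M replicates 1 and 2. For TDP43 replicate 2 the percentages were 6.00% with the other TDP43 library, and 0.131% and 1.03% with the hnRNP M libraries. Positions of TDP43 thus recurred more often in the other TDP43 library than in either hnRNP M library. This was not so for hnRNP M. Of its replicate 1 positions, 1.47% and 1.53% had a TDP43 position within 10 nt, and 1.49% had a position of hnRNP M replicate 2. Of its replicate 2 positions, 1.66% and 2.80% had a TDP43 position nearby, and 0.346% had a position of hnRNP M replicate 1. These shares move with the number of positions in the other list, which was larger in the TDP43 libraries.

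At the level of whole transcripts the overlap was large. Of the 3776 transcripts in hnRNP M replicate 1, 75.8% and 82.4% were also listed in the TDP43 libraries, and 74.2% were listed in hnRNP M replicate 2. Of the 9134 transcripts in hnRNP M replicate 2, 67.0% and 73.9% were listed in the TDP43 libraries and 30.7% in hnRNP M replicate 1. The 2 TDP43 libraries shared 9142 transcripts, which were 58.9% of replicate 1 and 48.3% of replicate 2. Across the 27252 transcripts, which are not independent replicates and of which many are at 0 in a library, Pearson's r of log2(counts per 1000000 + 10) was 0.61 between the TDP43 libraries, 0.56 between the hnRNP M libraries and 0.47 to 0.60 between the proteins. The values between proteins were 0.47 and 0.49 with hnRNP M replicate 1, and 0.56 and 0.60 with hnRNP M replicate 2. Each library but hnRNP M replicate 2 was most alike its own replicate, for TDP43 replicate 2 by a small margin. Depth differed between the libraries, and its part in these values was not tested.

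Both proteins contacted mostly introns. Introns held 84.2% and 79.7% of window counts in the TDP43 libraries, against 94.9% and 88.2% in the hnRNP M libraries. The groups did not overlap, with means of 82.0% ± 3.18 for TDP43 and 91.5% ± 4.73 for hnRNP M (SD, n = 2 each), a difference of -9.55 percentage points. An exact permutation test over the 4 libraries, two-sided, gave p = 0.333, which is the smallest that 2 against 2 can give. By number of kept positions the intron share was 93.5% and 93.1% in TDP43 against 94.0% and 92.9% in hnRNP M, and here the groups overlapped. Counted by positions, no difference between the proteins was seen. Outside introns, the mitochondrial genome took 1.25% and 3.79% of TDP43 counts and 0.404% and 2.36% of hnRNP M counts. The contig GL000220 took 1.93% and 4.61% of TDP43 counts and 0.242% and 2.67% of hnRNP M counts. In both of these the groups overlapped, although TDP43 was above hnRNP M within each replicate number. All other positions outside introns took 12.6% and 11.9% of TDP43 counts against 4.50% and 6.81% of hnRNP M counts, without overlap (exact permutation p = 0.333, two-sided). First introns took 23.7% and 24.3% of the intron counts of TDP43 and 22.7% and 23.3% of those of hnRNP M.

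The TDP43 libraries were listed in more transcripts, 15522 and 18916 against 3776 and 9134 with hnRNP M, and gave a larger share of their counts to the leading ones. The 10 transcripts of highest count held 10.9% and 13.5% of TDP43 window counts, against 5.38% and 8.18% of hnRNP M window counts, and the groups did not overlap (exact permutation p = 0.333, two-sided). In P-KO cells they overlapped, with 5.88% and 12.2% in TDP43 against 4.29% and 6.68% in hnRNP M, although TDP43 was higher within each replicate number. The transcript of highest mean share in TDP43 lies at chr1:109642870-109643098 on the plus strand, spans 229 nt, has no intronic position, and had 7849 and 8309 window counts in TDP43 against 0 and 92 in hnRNP M. It was high in both TDP43 libraries and low or at 0 in hnRNP M. The edgeR log2 fold change was 6.42 (SE 1.63), with an adjusted p of 0.241. A transcript without intronic positions at chr11:65266838-65273509 on the plus strand had 2352 and 1553 counts in TDP43 against 67 and 182 in hnRNP M (log2 fold change 2.71, SE 0.54, edgeR adjusted p = 0.241). Here too the TDP43 libraries were both above the hnRNP M libraries, per 1000000 counts as well. The other 3 transcripts of highest share in TDP43 were also among the 5 of highest share in hnRNP M. They were the GL000220 transcript with 4004 and 13048 counts in TDP43 against 149 and 3291 in hnRNP M, a mitochondrial transcript with 1546 and 8199 against 133 and 2446, and a transcript at chr6:15246577-15521747 with 1753 and 1650 against 793 and 1167. Replicates of the GL000220 and mitochondrial transcripts differed more than the proteins did, and the sign of the difference turned in at least 1 alternative for all 3 of these transcripts. The transcript at chr4:93225990-94677571, plus strand, was also among the 5 of highest share in hnRNP M, with 1100 and 769 counts in TDP43 against 392 and 409 in hnRNP M, and its sign turned with the scaling as well.

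The first of 3 tests asked which transcripts took a larger share of window counts with TDP43 than with hnRNP M. edgeR's quasi-likelihood test on the 4 libraries, with library totals as the scaling, was run on the 3307 transcripts that passed its filter on low counts, with Benjamini-Hochberg adjustment of the p-values over all of them. No transcript passed an adjusted p of 0.05 (0 of 3307, 0.0%). The common biological coefficient of variation between replicates was 0.670 here and 0.756 in the fit of introns below, so with 2 libraries a protein a count of 0 does not show that the proteins contacted the same RNAs to the same extent. At an unadjusted p under 0.05, 208 were higher in TDP43 (6.29%) and 280 were higher in hnRNP M (8.47%). DESeq2 on the same counts called 68 (2.06%), 35 higher in TDP43 (1.06%) and 33 higher in hnRNP M (0.998%). The count of edgeR calls depended on the libraries used: without hnRNP M replicate 2 it was 251, with 119 higher in TDP43 and 132 higher in hnRNP M, without TDP43 replicate 1 it was 34, without TDP43 replicate 2 it was 27, and without hnRNP M replicate 1 it was 0. In each of these a group is represented by a lone library, which is assumed to vary like the other group.

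The direction of the balance depended on the scaling. With library totals the median log2 fold change over all tested transcripts was -0.35, and TDP43 was the higher protein in 208 of the 488 transcripts under an unadjusted 0.05. With TMM factors the median was 0.25 and the split was 296 higher in TDP43 and 119 higher in hnRNP M. With DESeq2's size factors inside edgeR the median was 0.36 and the split was 319 higher in TDP43 and 97 higher in hnRNP M. Log2 fold changes in the text are those with library totals and should be read against that median of -0.35.

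**Figure D1:**
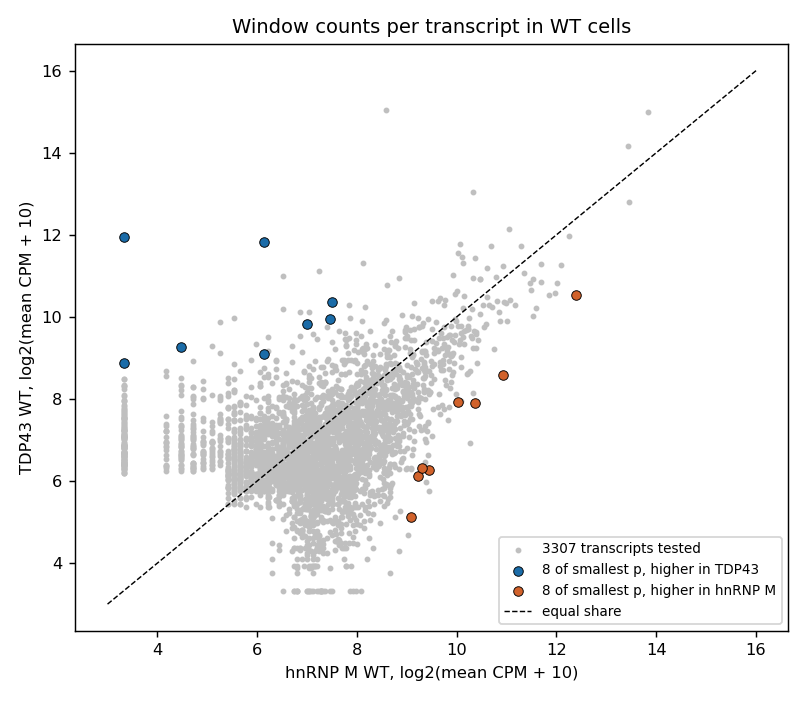
Mean window counts per 1000000 of the library, as log2(mean CPM + 10), for 3307 transcripts, with TDP43 WT on the vertical axis, hnRNP M WT on the horizontal axis, and a dashed line of equal share. The 8 transcripts of smallest p in each direction are coloured, and none of them passed an adjusted p of 0.05; points in the column at the far left are listed at 0 in both hnRNP M libraries.

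Since fewer than 5 transcripts passed, the 8 of smallest p in each direction are described, all of them with an edgeR adjusted p of 0.241 and therefore not passing. In none of the 16 did the groups overlap per 1000000 counts, as was also so for 20.0% of all tested transcripts with TDP43 on top and for 33.5% with hnRNP M on top. DESeq2 passed 7 of 8 in each direction. Because they were picked by their p, their values are a description.

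Of the 8 higher in TDP43, 4 had their kept positions within 87 to 3994 nt and 4 within 12134 to 81395 nt. ENST00000417523.1 (chr7:98479370-98479456, plus strand) had 1269 and 506 window counts in TDP43 and was listed at 0 in both hnRNP M libraries. All of its counts lay in intron 3, within 87 nt. In P-KO cells, which had no part in choosing it, it had 478 and 414 counts with TDP43 and was listed at 0 with hnRNP M. ENST00000483437.1 (chr3:160229029-160233022, minus strand) had 684 and 1101 counts in TDP43 against 0 and 15 in hnRNP M, and 163 and 1198 against 0 and 9 in P-KO cells. The log2 fold change in WT cells was 5.64 (SE 0.99). TDP43 was far above hnRNP M in each genotype, although the TDP43 replicates of P-KO cells differed from each other by a wide margin.

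The other 6 included a pair of transcripts with no intronic position, and the rest had their TDP43 counts mostly in introns. The transcript at chr1:11082483-11084047 on the plus strand had 108 and 114 counts in TDP43 and was listed at 0 in both hnRNP M libraries, all outside introns. At chr19:54024525-54025100, plus strand, TDP43 had 111 and 189 counts, against 0 and 3 in hnRNP M, also outside introns. Both were again listed at 0 with hnRNP M in P-KO cells, where TDP43 had 27 and 105 counts in the chromosome 1 transcript and 45 and 177 in the chromosome 19 transcript. The transcript at chr5:139030098-139050952, plus strand, had 170 and 273 counts in TDP43 against 9 and 11 in hnRNP M (log2 fold change 2.96, SE 0.50). That at chr5:25409298-25421431, minus strand, had 354 and 257 against 11 and 20 (log2 fold change 2.94, SE 0.51). The remaining pair behaved alike, with a higher count in every TDP43 library. At chr17:36586032-36667426, plus strand, TDP43 had 235 and 233 counts against 12 and 17 in hnRNP M, and at chr14:105335581-105362720, plus strand, it had 104 and 164 against 3 and 9. All 8 had both TDP43 libraries above both hnRNP M libraries in P-KO cells too, per 1000000 counts, against 25.0% of all tested transcripts.

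Those higher in hnRNP M had counts spread over many positions in long stretches. Their median span of kept positions was 87734 nt (range 41417 to 329950), against 8064 nt (range 87 to 81395) for the 8 higher in TDP43. Over all 3307 tested transcripts the median span was 88603 nt by TDP43 WT positions alone and 59493.5 nt by hnRNP M WT positions alone. Long spans were thus usual among tested transcripts, and it was the 8 higher in TDP43 that had a shorter median. ENST00000435968.1 (chr7:20054756-20162439, minus strand) had 55 and 54 window counts in TDP43 against 97 and 131 in hnRNP M, on 17 and 18 kept positions against 12 and 35. In window counts per 1000000 hnRNP M was higher in both libraries, with a log2 fold change of -2.53 (SE 0.45). In P-KO cells it had 119 and 132 counts with TDP43 against 96 and 51 with hnRNP M, where hnRNP M was again higher per 1000000. ENST00000549804.2 (chr15:25299355-25367137, plus strand) had 304 and 413 counts in TDP43 against 335 and 654 in hnRNP M (log2 fold change -1.88, SE 0.38). It is among the 5 transcripts of highest share in hnRNP M. In P-KO cells it had 2 and 19 counts with TDP43 and was listed at 0 with hnRNP M, so these cells give no second look at it.

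The other 6 had lower counts. The largest fold was at chr5:140931012-140997952, minus strand, with 6 and 6 counts in TDP43 against 37 and 58 in hnRNP M (log2 fold change -4.39, SE 0.63). The transcript at chr4:22406156-22517611, minus strand, had 16 and 16 counts against 52 and 65, and that at chr14:21683439-21737101, minus strand, had 10 and 20 against 45 and 56. Depth differed between the proteins, so the lower raw counts of TDP43 came from libraries with more counts in all. At chr19:8512487-8553903, plus strand, TDP43 had 17 and 16 counts against 48 and 58 in hnRNP M. At chr8:141680662-142010611, minus strand, it had 95 and 82 against 145 and 190, and at chrX:40945104-41088247, plus strand, 55 and 58 against 70 and 115. In P-KO cells 6 of the 8 had both hnRNP M libraries above both TDP43 libraries, and 1 had the opposite order, the chromosome 15 transcript. Among all tested transcripts these orders were found in 20.0% and 25.0%.

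The highest position of each of these transcripts was compared between replicates. For all 8 higher in TDP43, the highest TDP43 position had a count in both TDP43 libraries within 10 nt. For those higher in hnRNP M, this held for 1 of 8, the chromosome 15 transcript, where the position 25338221 in intron 17 had counts of 9 and 24 in hnRNP M. In none of the 16 did the other protein have a count at that position. The transcripts were picked by these same counts, which made recurrence and absence from the other protein likely. Over all kept positions, 8.39% and 6.00% recurred in the other TDP43 library, against 1.49% and 0.346% in the other hnRNP M library. The contrast between 8 and 1 is therefore a description.

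The sets under an unadjusted 0.05 were then read in the P-KO libraries, which had no part in their choice. Of the 208 transcripts higher in TDP43, 130 (62.5%) had both TDP43 P-KO libraries above both hnRNP M P-KO libraries, against 25.0% of all transcripts tested, and 4 had the opposite order. Of these 208, 85 were listed in hnRNP M WT and 102 in hnRNP M P-KO, against 3184 and 2771 of all 3307. A transcript that both hnRNP M P-KO lists lack has TDP43 on top wherever both TDP43 P-KO lists hold it. The 62.5% thus rests in part on short hnRNP M lists, and how far was not tested. Of the 280 higher in hnRNP M, 107 (38.2%) had both hnRNP M P-KO libraries on top, against 20.0% of all transcripts tested, and 30 had the opposite order. A difference of the contrast between genotypes was tested in a fit of all 12 libraries. No transcript passed (0 of 7189 by edgeR, 546 at an unadjusted p under 0.05).

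Transcripts higher in TDP43 by window counts had a larger share of their P-KO counts in a short stretch than the other sets. The share of a transcript's TDP43 P-KO counts that fell in its densest 1000 nt had a median of 56.7% (quartiles 27.8% and 86.4%) for the 203 of 208 listed there. It was 21.8% (13.6% and 33.3%) for 273 of the 280 higher in hnRNP M and 21.9% (13.5% and 36.7%) for 3291 of all 3307 tested. In the separate P-KO libraries the medians were 60.0% and 57.1% for those higher in TDP43, 29.7% and 26.5% for those higher in hnRNP M, and 30.0% and 26.9% for all tested. The hnRNP M counts of P-KO cells fell in the same order, with medians of 72.2% for 102 of the transcripts higher in TDP43, 43.8% for 247 of those higher in hnRNP M and 50% for 2771 of all tested, on medians of 2, 4 and 3 kept positions. With so few positions the share depends on their number, and the order of these hnRNP M medians followed that number. The hnRNP M counts therefore cannot decide whether the short stretch is particular to TDP43 contacts, and this is not shown. For the TDP43 P-KO counts the median number of kept positions per transcript was 14, 15 and 18 in these sets, and the median span was 27063, 67049 and 86670 nt. In the WT libraries, by which the sets were chosen, 50.9% of the window counts of the transcripts higher in TDP43 lay in introns, against 97.1% for those higher in hnRNP M and 83.0% for all tested. For intron sets by window counts the median TDP43 P-KO shares were 63.6%, 33.3% and 26.9%, in the same order of sets. The concentration was not seen in transcript sets chosen by number of kept positions, described below. There the medians were 11.8% for those higher in TDP43, 19.2% for those higher in hnRNP M and 12.3% for all tested. Scaled by total kept positions they were 13.8%, 17.2% and 13.3%.

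**Figure D2:**
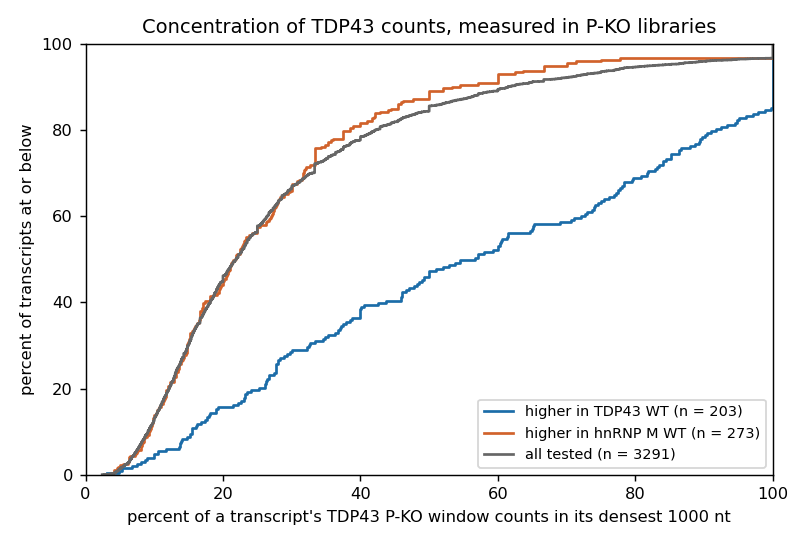
Cumulative share of transcripts (vertical axis, percent) by the percentage of a transcript's TDP43 window counts in P-KO cells that lie in its densest 1000 nt (horizontal axis), for transcripts higher in TDP43 WT, higher in hnRNP M WT at an unadjusted p under 0.05, and all tested. The curve of those higher in TDP43 lies to the right, with a median of 56.7%, while the other curves run together with medians of 21.8% and 21.9%. The sets were chosen by window counts, and sets chosen by number of kept positions did not show this order.

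The second test took introns in place of transcripts. By edgeR, none of 2877 introns passed (0.0%), with 216 higher in TDP43 (7.51%) and 266 higher in hnRNP M (9.25%) at an unadjusted p under 0.05. DESeq2 called 121 (4.21%), 52 higher in TDP43 (1.81%) and 69 higher in hnRNP M (2.4%). Without TDP43 replicate 1 edgeR called 23 introns and without TDP43 replicate 2 it called 18, against 0 without either hnRNP M library. The median log2 fold change was -0.37 with library totals and 0.23 with TMM factors, and TMM turned the split to 266 higher in TDP43 and 142 higher in hnRNP M. In P-KO cells 143 of the 216 (66.2%) kept both TDP43 libraries on top, against 28.4% of all introns tested, and 83 of the 266 (31.2%) kept both hnRNP M libraries on top, against 17.9%. Of the 216, 71 were listed in hnRNP M WT and 95 in hnRNP M P-KO, against 2732 and 2216 of all 2877. The limit given for the transcripts therefore holds here too. No intron passed the test of a difference between genotypes (0 of 7750 by edgeR, 475 at an unadjusted p under 0.05).

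The 8 introns of smallest p higher in TDP43 all had an edgeR adjusted p of 0.195, and 4 of them were listed at 0 in both hnRNP M libraries. Beside intron 3 of ENST00000417523.1 these were intron 1 of the chromosome 17 transcript (chr17:36586032-36614229, plus strand) with 158 and 126 TDP43 counts, an intron 10 at chr8:38279799-38280235, minus strand, with 78 and 163, and an intron 4 at chr12:133107635-133122453, plus strand, with 88 and 124. The TDP43 counts were present in both replicates each time. An intron 4 at chr16:1784748-1790392, plus strand, had 568 and 364 counts in TDP43 against 0 and 7 in hnRNP M, on 74 and 50 kept positions against 0 and 2. An intron 19 at chr11:93454699-93454956, plus strand, had 328 and 162 counts against 0 and 3, within 258 nt. An intron 33 at chr1:987431-988735, plus strand, had 416 and 369 counts against 0 and 9. In these 3 hnRNP M replicate 1 was at 0 and replicate 2 was low. FOX2 contacted the chromosome 1 intron as well, with 445 and 946 counts in WT cells. Groups that did not overlap made up 21.8% of all tested introns with TDP43 on top and 34.0% with hnRNP M on top. In all 8 introns higher in TDP43 the highest position recurred in both TDP43 libraries, which their choice by the same counts made likely. All 8 had TDP43 on top in P-KO cells, against 28.4% of all tested introns.

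The 8 introns higher in hnRNP M had lower counts, and 3 were listed at 0 in both TDP43 libraries. An intron 5 at chr6:15470779-15484988, plus strand, had 26 and 46 counts in hnRNP M and none listed in TDP43. It belongs to the transcript that had the fifth highest share in TDP43, so a transcript with many TDP43 counts held an intron listed at 0. An intron 28 at chrX:40578306-40584957, minus strand, had 43 and 24 counts in hnRNP M, and an intron 6 at chr16:70441834-70467457, minus strand, had 36 and 15, also with none listed in TDP43. These had TDP43 counts in P-KO cells, with 18 and 9 in the chromosome 6 intron, 7 and 4 in the chromosome X intron and 14 and 26 in the chromosome 16 intron. Intron 5 of ENST00000435968.1 had 34 and 35 counts in TDP43 against 83 and 120 in hnRNP M (log2 fold change -3.01, SE 0.50, edgeR adjusted p = 0.195). Its TDP43 counts were even, 11 kept positions in each library with no count above 4, while hnRNP M had 10 and 32 kept positions with highest counts of 13 and 6. An intron 9 at chr10:126730737-126799278, minus strand, had 56 and 62 counts against 85 and 122 (log2 fold change -2.27, SE 0.47), and an intron 2 at chr2:129034712-129074226, minus strand, had 9 and 4 against 35 and 43 (log2 fold change -3.99, SE 0.87). In P-KO cells 3 of the 8 had both hnRNP M libraries on top, against 17.9% of all tested introns.

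**Figure D3:**
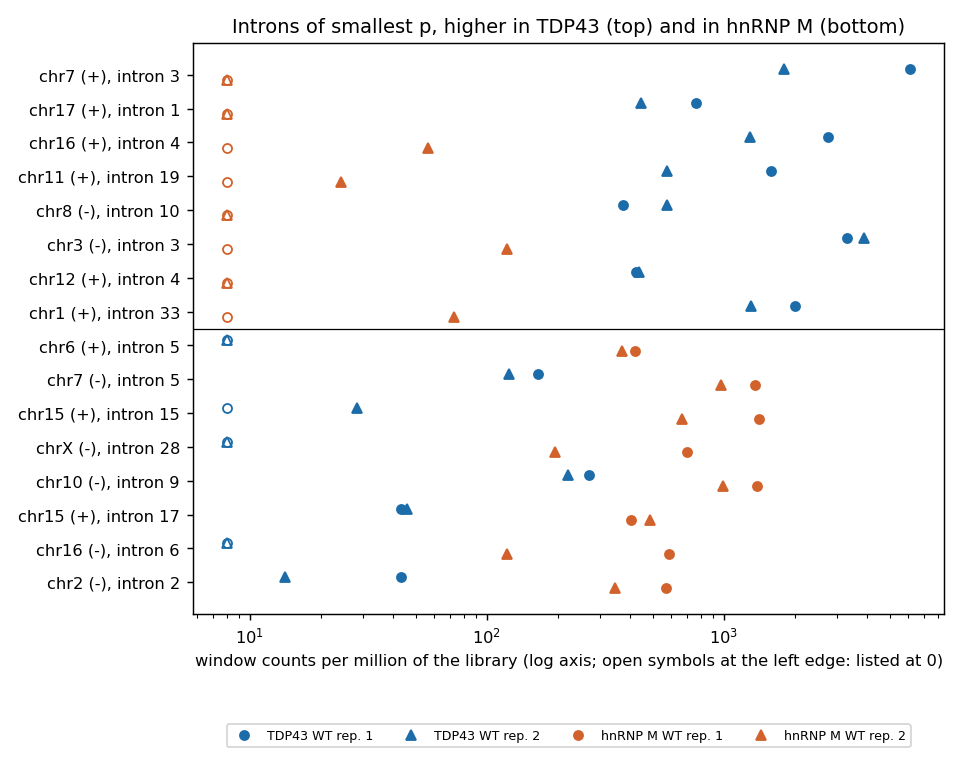
Window counts per 1000000 of the library (log axis) in the 4 WT libraries for the 8 introns of smallest p higher in TDP43 (top) and the 8 higher in hnRNP M (bottom), with circles for replicate 1, triangles for replicate 2 and open symbols for libraries listed at 0. The groups do not overlap in any of the 16 introns, and none passed an adjusted p of 0.05.

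The introns of highest share were mostly long and contacted by both proteins. The highest in each protein was intron 1 of the chromosome 6 transcript (chr6:15246939-15371601, plus strand), with 1360 and 1229 counts in TDP43 against 456 and 716 in hnRNP M, and its groups overlapped per 1000000 counts. In TDP43 it was followed by an intron 5 at chr15:25227341-25241738, plus strand, with 1139 and 981 counts against 168 and 185, by the introns of ENST00000417523.1 and ENST00000483437.1 above, and by an intron 2 at chr3:75986909-77104102, plus strand, with 817 and 744 against 202 and 188. In hnRNP M it was followed by an intron 1 at chr5:93491235-93697799, minus strand, with 715 and 399 counts in TDP43 against 327 and 422 in hnRNP M. Then came an intron 3 at chr15:25267184-25296211 with 491 and 333 against 285 and 422, an intron 2 at chr4:93512200-93982803, plus strand, with 542 and 356 against 300 and 291, and an intron 1 at chr3:61548571-61734438, plus strand, with 349 and 279 against 235 and 392. Of these 5, the introns of chromosome 15 and of chromosome 3 had both hnRNP M libraries on top per 1000000 counts, and none of the 9 introns of highest share passed in edgeR (adjusted p from 0.195 to 0.861).

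The kept positions of 1 leading intron of each protein are shown by their distances. In intron 3 of ENST00000417523.1 TDP43 had 7 and 6 kept positions inside 87 nt, with highest counts of 576 and 180. In intron 5 of ENST00000435968.1 the hnRNP M positions lay far apart, at distances of -21880 to 16006 nt from the highest position in replicate 1 and of -36643 to 33832 nt in replicate 2. The TDP43 positions of that intron lay as far apart, at -34179 to 36816 nt and -30272 to 18095 nt. These introns were chosen for their difference between proteins, and they are different introns, so the contrast between them is a description.

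**Figure D4:**
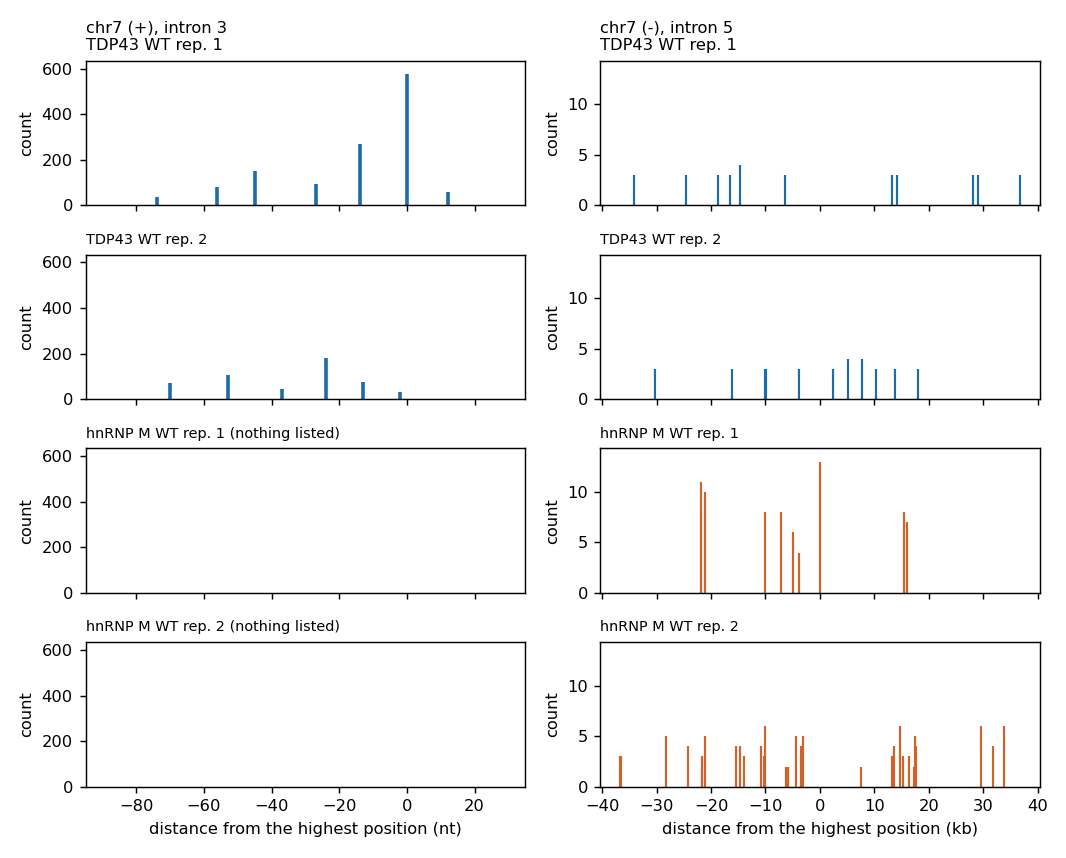
Counts of kept positions (vertical axis) by distance from the highest position of the intron, in nt for intron 3 of ENST00000417523.1 (left) and in kb for intron 5 of ENST00000435968.1 (right), with the TDP43 WT libraries above the hnRNP M WT libraries. The left intron has counts of up to 576 and 180 with TDP43 and nothing listed with hnRNP M, and the right intron has counts of at most 4 with TDP43 and at most 13 and 6 with hnRNP M.

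The third test used the number of kept positions per transcript, which a few very high positions cannot carry. With library totals of window counts as the scaling, edgeR passed none of 918 transcripts (0.0%), with 148 higher in TDP43 (16.1%) and 31 higher in hnRNP M (3.38%) at an unadjusted p under 0.05, and DESeq2 passed none. The median log2 fold change over all 918 was 0.61 in this scaling. The groups did not overlap in 47.9% of them with TDP43 on top and in 7.95% with hnRNP M on top. The mean count per kept position was 3.19 and 3.12 in TDP43 against 8.44 and 3.81 in hnRNP M, so that a given number of window counts lay on more positions in TDP43. Without hnRNP M replicate 2 edgeR passed 192, of which 191 were higher in TDP43, and without any other library it passed 0. TMM factors brought the median to 0.0043 and gave 64 calls, 18 higher in TDP43 and 46 higher in hnRNP M, and DESeq2's size factors in edgeR gave 58, with 19 and 39.

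Among the 8 of smallest p in each direction (edgeR adjusted p from 0.0817 to 0.133, none passing), all 8 higher in TDP43 were listed at 0 in both hnRNP M libraries. The transcript at chr17:25811026-25877503, plus strand, had 13 and 18 kept positions in TDP43, and that at chr2:106366637-106472804, plus strand, had 13 and 19. The TDP43 libraries were alike there, but in P-KO cells TDP43 had 0 and 0 kept positions in the chromosome 17 transcript and 0 and 1 in the chromosome 2 transcript. Of the 8, 4 had both TDP43 libraries on top in P-KO cells. Of the 148 transcripts at an unadjusted p under 0.05, 125 (84.5%) had both TDP43 libraries on top in P-KO cells, against 60.2% of all 918, and of the 31 higher in hnRNP M, 2 (6.45%) had both hnRNP M libraries on top, against 2.07%. On the hnRNP M side the transcript at chr5:140931012-140997952 came first, with 2 and 2 kept positions in TDP43 against 4 and 16 in hnRNP M (log2 fold change -3.54, SE 0.64). A transcript at chr5:74143892-74162027, minus strand, had 0 and 3 against 4 and 11 (log2 fold change -3.57, SE 0.71).

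Scaling by the total number of kept positions was an alternative added after the data were seen, and it is given because the scaling decided how many transcripts passed. Here edgeR called 89 of 1109 transcripts (8.03%), 21 higher in TDP43 (1.89%) and 68 higher in hnRNP M (6.13%), and at an unadjusted p under 0.05 these were 96 (8.66%) and 202 (18.2%). Their number was 0 without hnRNP M replicate 1, 3 without hnRNP M replicate 2, 158 without TDP43 replicate 1 and 174 without TDP43 replicate 2. Groups that did not overlap made up 23.8% of all 1109 with TDP43 on top and 33.6% with hnRNP M on top, and all 89 were among them. In the planned scaling all 21 kept their direction, and of the 68 all 51 that were tested kept theirs. These are the same kept positions scaled otherwise, so this is no separate support. The median log2 fold change over all tested was -0.17 here and 0.61 in the planned scaling, a move towards TDP43. In the planned edgeR fit all 21 had an unadjusted p under 0.05, as had 26 of the 51. Of the 21, 8 were listed at 0 in both hnRNP M libraries. In P-KO cells 16 of the 21 (76.2%) had both TDP43 libraries above both hnRNP M libraries, against 23.8% of all 1109, and 37 of the 68 (54.4%) had both hnRNP M libraries on top, against 23.6%.

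Of the transcripts called in this alternative, the rule for passing features picked the 12 of largest fold in each direction. Of the 12 higher in TDP43, 8 were listed at 0 in both hnRNP M libraries, so their rank does not rest on a measured fold. The smallest adjusted p was that of ENST00000549804.2 on chromosome 15, with 50 and 71 kept positions in TDP43 against 36 and 130 in hnRNP M (log2 fold change -2.50, SE 0.33, edgeR adjusted p = 0.00271). Per 1000000 kept positions the hnRNP M libraries were both higher. ENST00000435968.1 had 17 and 18 kept positions against 12 and 35 (log2 fold change -2.48, SE 0.46, edgeR adjusted p = 0.0185). Among those higher in TDP43 with hnRNP M positions listed, the transcript at chr10:1275491-1776929, minus strand, had 56 and 75 kept positions against 0 and 4 (log2 fold change 3.08, SE 0.65, edgeR adjusted p = 0.0188). The transcript that holds the chromosome 16 intron named above (chr16:1756980-1807870) had 75 and 55 kept positions against 0 and 4 (log2 fold change 3.13, SE 0.71, edgeR adjusted p = 0.0239). DESeq2 passed none of the 12 higher in TDP43 and 10 of the 12 higher in hnRNP M.

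**Figure D5:**
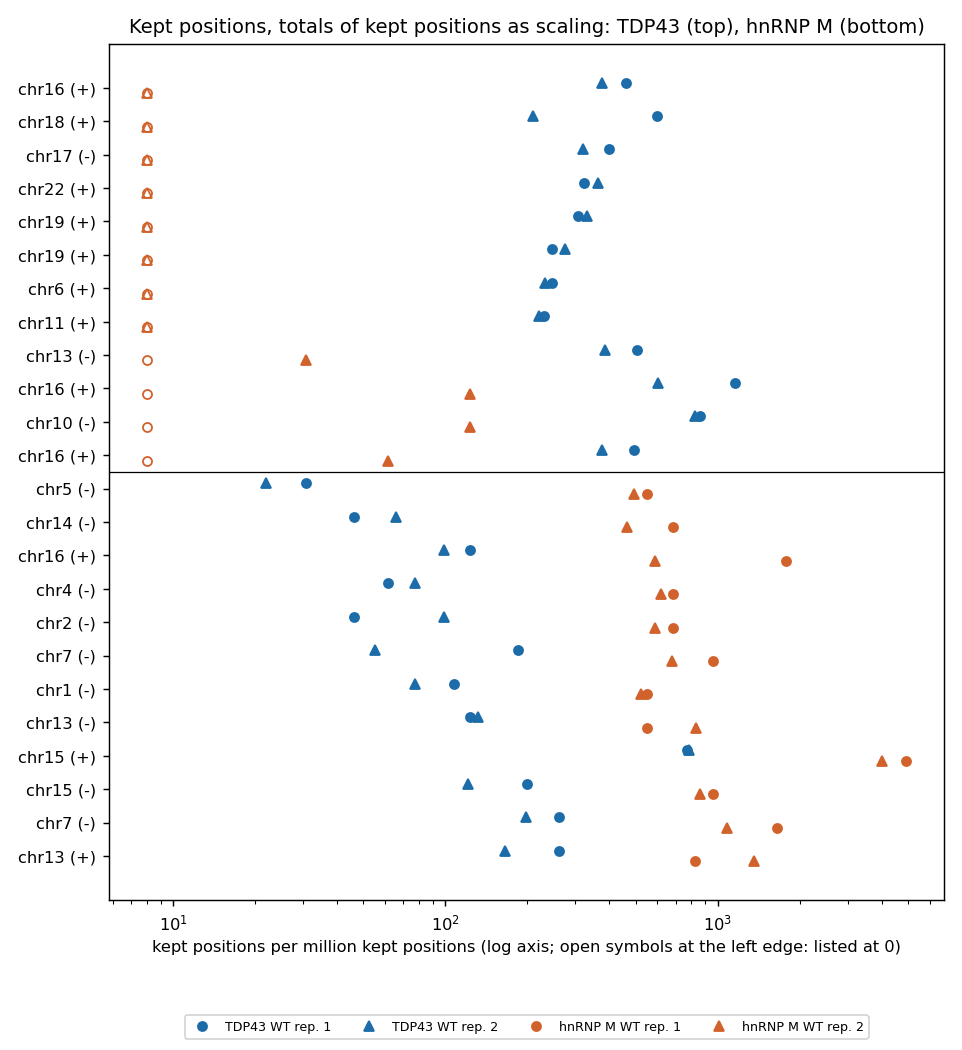
Kept positions per 1000000 kept positions of the library (log axis) in the 4 WT libraries, for the 12 transcripts of largest fold higher in TDP43 (top) and the 12 higher in hnRNP M (bottom) in the fit scaled by total kept positions, with open symbols for libraries listed at 0. The groups do not overlap in any of the 24 transcripts, and 8 of those at the top are listed at 0 in both hnRNP M libraries.

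A stretch of chromosome 15 on the plus strand, with kept positions from 25230008 to 25367137, was taken because earlier results of these data showed it lower in P-KO cells, and it held introns on both sides of the comparison. It is the region of the long noncoding SPA RNAs, whose name is in the source label of the P-KO cells. It had 2402 and 2130 window counts in TDP43 against 851 and 1353 in hnRNP M in WT cells, and 14 and 31 against 10 and 0 in P-KO cells, so P-KO cells cannot serve as a second look. Of 23 introns with at least 20 counts over the 4 libraries, 4 had both TDP43 libraries on top and 11 had both hnRNP M libraries on top. By edgeR 16 of the 23 were tested, 7 had an unadjusted p under 0.05 and none passed after adjustment. Over all 2877 tested introns, 21.8% had both TDP43 libraries on top and 34.0% had both hnRNP M libraries on top. An unadjusted edgeR p under 0.05 was found in 16.8% of them. The counts in this stretch are therefore a description.

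The upstream introns of the stretch leaned to TDP43. From 25230008 to 25241738, in an intron 5, TDP43 had 4211 and 2283 window counts per 1000000 against 2369 and 1045 in hnRNP M. These overlapped, while over the whole intron, which starts further upstream, both TDP43 libraries were on top (log2 fold change 1.09, edgeR adjusted p = 0.357). From 25249415 to 25263848, in an intron 8, it had 3383 and 2078 against 1379 and 761, without overlap (log2 fold change 1.36, edgeR adjusted p = 0.243). Downstream hnRNP M was on top: from 25267184 to 25296211, in an intron 3, TDP43 had 2363 and 1177 against 4625 and 3418 in hnRNP M (log2 fold change -1.18, edgeR adjusted p = 0.313). Of the 16 introns of ENST00000549804.2 with at least 20 counts, which follow, 10 had both hnRNP M libraries on top, 2 had both TDP43 libraries on top and 4 had overlapping groups. Among all tested introns hnRNP M was on top in 34.0% and TDP43 in 21.8%. Its intron 3 was among those that overlapped, with 76 and 34 counts in TDP43 against 17 and 25 in hnRNP M (log2 fold change 0.027, edgeR adjusted p = 0.993). Its intron 4 (25310378 to 25314349) had 241 and 534 counts per 1000000 in TDP43 against 1590 and 1458 in hnRNP M (log2 fold change -1.97, edgeR adjusted p = 0.195), and its intron 15 (25332961 to 25334999) had 0 and 8 window counts in TDP43 against 87 and 82 in hnRNP M (log2 fold change -6.01, edgeR adjusted p = 0.195). Those with TDP43 on top lay further on: intron 21 was listed at 0 in both hnRNP M libraries, with 10 and 13 counts in TDP43, and intron 30 had 32 and 23 counts in TDP43 against 0 and 6 in hnRNP M.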

How the data were processed

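The submitters' processing notes name Bowtie and the build GRCh37, or hg19, in which coordinates are given; which Bowtie version was run and how positions were called is not given in the sources used here. For each library the authors deposited a list of single nucleotides with a whole-number count, not normalized, and a p-value or q-value, of which it is not stated which it is and which was never above 0.05. Whether the deposited counts are reads or cDNAs collapsed by barcode is not stated. Neighbouring positions up to 5 nt apart mostly carry equal counts, so positions were kept highest first and at least 11 nt apart on a strand, and their counts were summed per transcript (as named in the lists) and per intron. Window counts per library were 61625 to 282997, and counts limit the precision of each share.

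Transcript labels are the authors'. Of 7273 positions listed in more than 1 of the 4 WT libraries, 412 (5.66%) carried another transcript in another library, and joining such labels was an added alternative. Replicates shared at most 8.39% of kept positions within 10 nt, so none was treated as a repeat of another. TDP43 WT was compared with hnRNP M WT by edgeR 4.0.16 in R 4.3.3 (glmQLFit and glmQLFTest) on the 4 libraries, with library totals of window counts as the scaling, filterByExpr at its defaults and Benjamini-Hochberg adjustment over all features tested at 0.05, for window counts per transcript and per intron and for kept positions per transcript. A fold change is TDP43 over hnRNP M, and its SE is the log2 fold change divided by the square root of F. DESeq2 1.42.0 was an alternative, as were TMM factors, other filters, spacings and sample sets, and leaving out each library. Scaling of kept positions by their own totals was added after the data were seen. The fits were tested on simulated counts, where they called most of the altered features at a low spread and hardly any at a spread like that of the transcript and intron counts here. All altered features were given a change of the same size, so this does not speak to other sizes, such as a group at 0. For kept positions the simulation used totals of kept positions as the scaling, so the planned scaling of that fit was not simulated. Shares were compared in Python 3.11.15 with scipy 1.17.1. CPM is per 1000000 window counts, or kept positions where stated.

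The members, lists and tests were chosen with earlier results of these data known. Named features were the 12 of largest fold in each direction among those passing, with groups apart and a mean count of at least 10; the 8 of smallest p in a direction where fewer than 5 passed; and the 5 of highest mean share in each protein. Gene lists and markers of H9 cells could not be applied, since the sources used here do not pair the transcript identifiers with gene names, and no sequence was read because no hg19 genome was used here.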

Additional observations from a re-analysis of the deposited data

How the results depend on the processing

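The counts of passing features depended on most choices, and no cause was tested. For transcripts by window counts, 0 passed by edgeR in the planned fit, 68 by DESeq2, 39 with all 12 libraries in the fit, 68 with no filter on low counts, and 0 to 251 when each library in turn was left out. For introns by window counts, 0 passed in the planned fit, 121 by DESeq2, 13 with the robust option, 13 with all 12 libraries, 16 with at least 20 counts in 2 libraries, 31 with no filter, 199 with all listed positions, and 0 to 23 when a library was left out. For kept positions, 0 passed in the planned fit, 64 with TMM factors, 58 with DESeq2 size factors, 19 with the robust option, 55 with at least 20 positions in 2 libraries, 11 with no filter, 128 with all listed positions, 8 with positions 31 nt apart, 2 of 14 tested with counts of 10 or more, 31 without mitochondrial and GL000220 positions, 13 with labels joined, and 0 to 192 when a library was left out. Scaled by total kept positions, 89 passed, with 50 under TMM factors, 58 under size factors, 23 by DESeq2 (387 adjusted p not given), 19 with all 12 libraries, 41 with no filter, 156 with all listed positions, 6 of 14 with counts of 10 or more, and 0 to 174 when a library was left out. The difference in intron share of -9.55 percentage points was -26.2 with all listed positions and -20.5 with counts of 10 or more, and -12.9 to -6.20 when a library was left out.

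With the replicate number as a block, 2 transcripts and 88 introns passed by window counts, and 14 transcripts by kept positions (154 scaled by total kept positions). Over the features of the 4 fits, libraries of the same number did not deviate together (correlations of 0.038, 0.010, 0.056 and -0.0061). Some shares of whole libraries did follow the number. Replicate 2 had the higher mitochondrial share in each group, with 3.79% against 1.25% in TDP43 WT and 2.36% against 0.404% in hnRNP M WT. In P-KO cells it was 3.25% against 0.425% in TDP43 and 1.47% against 0.248% in hnRNP M. The planned fits held no pairing, and what the number stands for was not tested.

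Signs turned only for features of highest share, and no reversed value passed the threshold. The log2 fold change of the GL000220 transcript was 1.17 and turned to -0.27 with counts of 10 or more. That of the mitochondrial transcript, 0.73, turned to -0.70 with counts of 10 or more, -0.56 without TDP43 replicate 2 and -0.12 without hnRNP M replicate 1, in a range up to 3.08 when a library was left out. That of the chromosome 6 transcript, -0.65, turned to 0.0052 with TMM factors, 0.12 with size factors, 0.19 with all listed positions and 0.88 with counts of 10 or more, and its intron 1, -0.28, turned to 0.34, 0.44, 0.73 and 1.31 in the same settings. The chromosome 4 transcript, -0.27, turned to 0.42 with TMM factors, 0.54 with size factors, 0.13 without TDP43 replicate 2 and 0.27 without hnRNP M replicate 1, and was as low as -0.83 when a library was left out. Intron 2 on chromosome 3, 0.46, turned to -0.41 with counts of 10 or more. The other named features kept their sign in each alternative in which they were tested. Features listed at 0 in both libraries of a protein carry no fold, and with 7299 kept positions hnRNP M replicate 1 limits what can be seen on that side.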
